A study of Mus musculus with 13 samples.

Results

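The interaction between doxorubicin (DOX) and IL-17A was measured in cultured 4T1-Thy1.1 cells, a BALB/c mouse mammary carcinoma line that carries a Thy1.1 transgene. All 13 of the 13 libraries entered it, in 4 conditions: control (n = 3), IL-17A alone (n = 3), DOX alone (n = 4) and DOX+IL-17A (n = 3). Cells grown in 12-well plates received 200 ng/mL DOX, 25 ng/mL recombinant mouse IL-17A, both or neither, and RNA was taken after 48 hours. For each gene the interaction was the IL-17A effect with DOX (mean of DOX+IL-17A minus mean of DOX) minus the IL-17A effect without DOX (mean of IL-17A minus mean of control), with every mean taken over log2(value + 1). A value of 0 means that the effects of both agents added up on the log2 scale. A negative value means that the gene was lower with both agents than that sum, and a positive value that it was higher. The interaction could be tested for 12319 of the 13222 genes in the table. It joins 4 group means, so its standard error (median 0.49 over genes) was larger than that of the IL-17A effect with DOX alone (median 0.33), and the 95% interval of a typical gene reached 1.04 to either side. The study's general statement on statistics speaks of biological replicates, but the labels do not say which libraries came from separate cultures or experiments, so p-values measure the spread between these libraries.

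DOX is an anthracycline that intercalates into DNA, poisons topoisomerase II and breaks DNA. Damaged nuclei can release DNA that cytosolic sensors detect, and tumor cells may then secrete type I interferon. Interferon signals through receptor chains, JAK kinases and STAT and IRF factors, which bind interferon-stimulated response elements (ISRE) in promoters and switch on antiviral effectors, GTPases and antigen presentation. IL-17A, a cytokine of T cells, binds the Il17ra and Il17rc receptor chains. In epithelial cells it acts through NF-kB and related factors, and by stabilizing messenger RNA, to raise chemokines and acute phase genes.

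Reads on listed genes ran from 4445592 to 16930600 per library. Mammary epithelial markers (8 of 8 listed) summed to 2015 to 2395 in control and 1789 to 2165 in IL-17A libraries, and to 1083 to 1160 in DOX and 927 to 1191 in DOX+IL-17A libraries. Skeletal muscle markers summed to 329.7 in 1 library, DOX replicate 1, and to 10.6 to 55.2 in the other 12. Control replicate 1 stood apart on the second principal component (74.7, others up to 23.4). Without both of these libraries 0 genes passed an adjusted p of 0.05 by limma, as with them, and the median interaction of the antiviral effectors was -1.36 (-1.26 with them).

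The 5 functions whose medians lay farthest from additivity were all linked to interferon, and all lay on the negative side. The lists were chosen with earlier results of these data known, and 7 of the 39 cover interferon-linked functions. The 5 medians are therefore not 5 separate results. The plot of every list member by function places the interferon-inducible GTPases (median interaction -1.77 over 17 tested genes), interferon-linked chemokines (-1.57 over 5), antiviral effectors (-1.26 over 43), MHC class I and peptide loading genes (-0.95 over 25) and cytosolic nucleic acid sensors (-0.74 over 19) at the low end of 39 lists. The median over all tested genes was -0.064, and the other 34 lists had medians between -0.34 and 0.37. No gene passed an adjusted p under 0.05 by limma (0% called), and the smallest adjusted p was 0.17, for *Rsad2*. At an unadjusted p under 0.05, limma placed 556 genes (4.51%), 357 below 0 (2.9%) and 199 above 0 (1.62%). The total is no larger than the share this threshold lets pass where no gene has an interaction. Passing it is therefore not a call for any single gene. Voom with limma and edgeR's quasi-likelihood test on the recovered reads also placed 0 genes past the adjusted threshold. DESeq2 placed 18 genes past it, all 18 below 0. Of these, 15 belonged to the 7 lists of interferon-linked functions, checkpoint ligands included, and the other 3 were *Gbp2b*, *Apol7a* and *Eml6*.

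**Figure D1:**
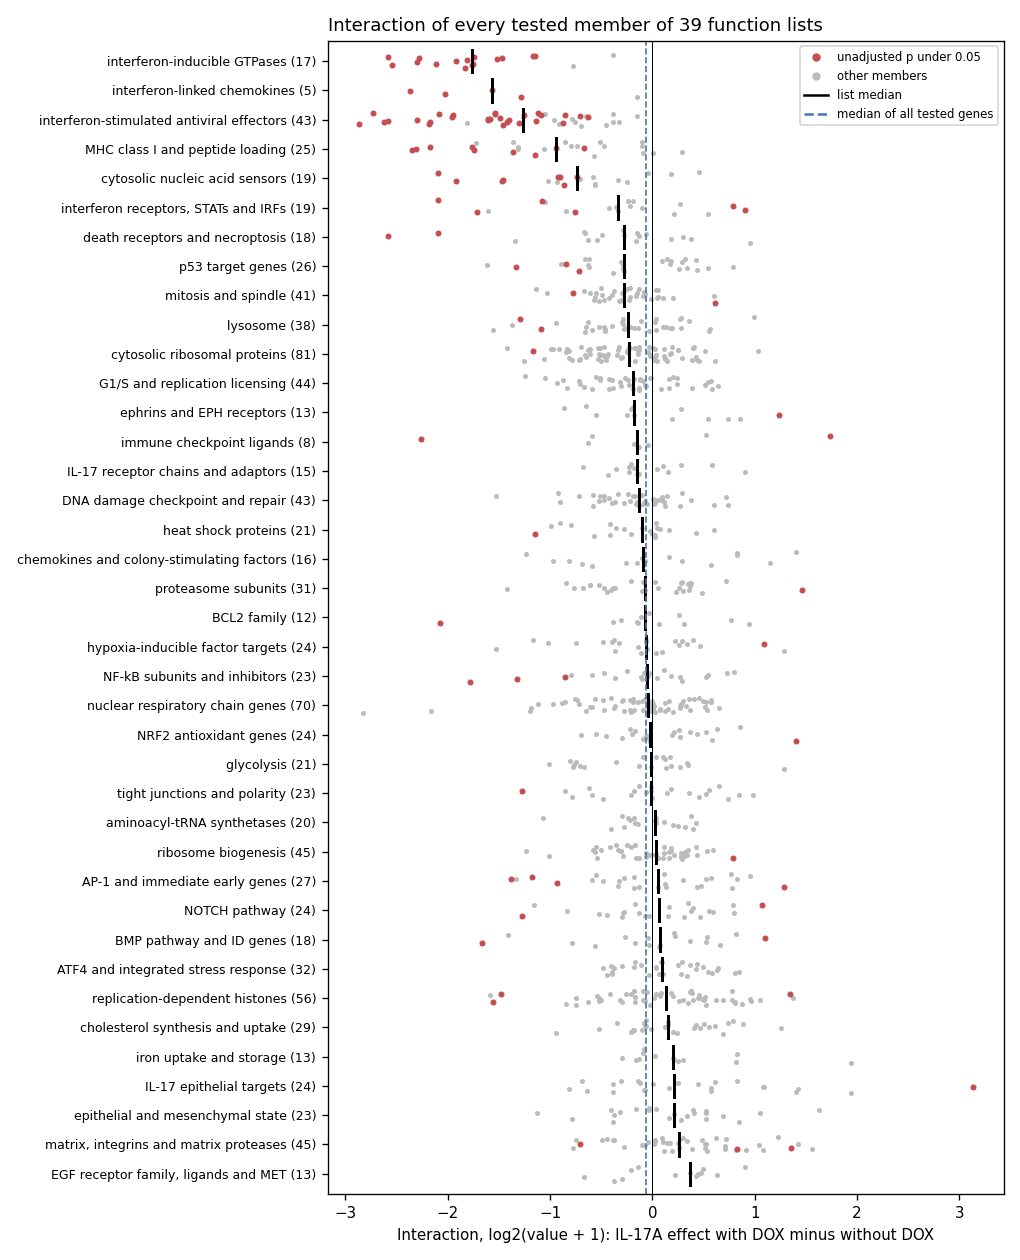
Interaction on the log2(value + 1) scale (x axis) of every tested member of 39 function lists (y axis, number of tested members in brackets). Black bars are list medians, red points have an unadjusted p under 0.05, and the dashed line is the median of all tested genes (-0.064); the 5 lists at the top have medians from -1.77 to -0.74.

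Promoters of genes at the low end are shown first because many hold ISRE letters, and that of *Cxcl1*, an IL-17A target, because it holds NF-kB letters. The interaction of *Cxcl1* was -0.68, with an interval that spanned 0. Only promoters that hold these letters were chosen for printing. Each is 1 RefSeq promoter on GRCm38.p6, from 250 bases before to 50 bases after the start, printed along the gene's strand. Capitals mark the matches: GAAA, 2 bases of any kind and GAAA on either strand in *Rsad2* (chr12:26456403-26456702, minus strand, 120 bases before the start) and *Isg15* (chr4:156200769-156201068, minus strand, 3 overlapping matches beginning 78 to 66 bases before), and GGGA, 2 bases of any kind and TTCC on either strand in *Cxcl1* (chr5:90890995-90891294, plus strand, 2 overlapping matches beginning 71 and 70 bases before).
Rsad2: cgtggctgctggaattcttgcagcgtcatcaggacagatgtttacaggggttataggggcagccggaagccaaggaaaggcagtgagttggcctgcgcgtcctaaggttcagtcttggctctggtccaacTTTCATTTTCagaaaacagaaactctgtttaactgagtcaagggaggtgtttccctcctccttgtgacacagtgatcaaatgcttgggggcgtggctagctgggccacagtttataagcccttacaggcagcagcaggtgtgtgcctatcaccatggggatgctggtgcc
Isg15: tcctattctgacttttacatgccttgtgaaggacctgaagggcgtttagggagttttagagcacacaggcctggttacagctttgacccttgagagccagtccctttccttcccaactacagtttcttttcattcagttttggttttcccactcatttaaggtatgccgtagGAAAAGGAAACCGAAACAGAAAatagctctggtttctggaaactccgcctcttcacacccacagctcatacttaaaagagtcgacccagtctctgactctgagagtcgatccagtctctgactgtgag
Cxcl1: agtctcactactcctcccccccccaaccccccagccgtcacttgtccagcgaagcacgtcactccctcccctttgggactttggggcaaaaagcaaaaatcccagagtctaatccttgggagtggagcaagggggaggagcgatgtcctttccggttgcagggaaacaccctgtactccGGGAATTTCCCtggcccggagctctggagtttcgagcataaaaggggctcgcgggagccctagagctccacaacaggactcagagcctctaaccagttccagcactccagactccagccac
Of the 43 antiviral effectors 32 had a promoter in the RefSeq set, and 15 of those (46.9%) held the ISRE letters. Of the 17 GTPases 10 had one and 9 (90%) held them. The share over all 27025 genes with a promoter was 3.99%. Among the IL-17 target genes 4 of 18 held the NF-kB letters (22.2%, against 1.63% of all genes), 2 the ISRE letters (11.1%) and 5 those of AP-1 (TGA, any base and TCA), 27.8% against 8.97% of all genes. The letters of a STAT site (GAS: TTC, 3 bases of any kind and GAA) stood in 8 of the 32 effector promoters (25%), 6 of the 10 GTPase promoters (60%) and 0 of 18 IL-17 target promoters, against 9.55% of all genes. NF-kB letters were held by 3 effectors (9.38%) and 2 GTPases (20%), and AP-1 letters by 9 effectors (28.1%) and 2 GTPases (20%). The antiviral effectors with ISRE letters had a median interaction of -1.42 (n = 15) and those without had -1.12 (n = 17), with 10 genes past an unadjusted p of 0.05 in each. A match describes letters in a window, and no binding was measured.

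Antiviral effectors are the proteins by which interferon blocks viral replication. All 43 tested members had an interaction below 0 (54.9% of all tested genes did), and 28 had an unadjusted p under 0.05, all below 0, where 2.9% of all tested genes did. On the linear scale the sign was negative for all 43 as well. *Ifitm2*, an interferon-induced antiviral gene whose paralog *Ifitm3* is a member, was not in the list and lay above 0 (1.13 (95% interval 0.10 to 2.17)). The IL-17A effect had a median of -1.26 with DOX and -0.04 without it. *Rsad2* (GRCm38 chr12:26442746-26456452), which makes an antiviral nucleotide, was at 15.9, 18 and 12.1 normalised units (CPM with TMM scaling of the library size) in the control libraries and at 18.9, 23.3 and 17.6 with IL-17A. With DOX it was at 181, 169, 261 and 294, and with DOX+IL-17A at 71.2, 25.3 and 30.1. The DOX and DOX+IL-17A libraries did not overlap, while control and IL-17A libraries did. The ratio of means with DOX to those without was 14.8 in the absence of IL-17A and 2.12 in its presence. Addition on the log2 scale would have put the combination at 284, against a geometric mean of 37.9. The interaction was -2.87 (95% interval -3.85 to -1.89, unadjusted p = 1.4e-05, adjusted p = 0.17) by limma, and an unadjusted p under 0.05 was kept in all 13 fits that left out 1 library (-3.32 to -2.59).

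*Isg15*, a ubiquitin-like protein, was at 362, 368, 513 and 462 with DOX and 139.9, 79.4 and 51.2 with DOX+IL-17A. Without DOX it was at 16.1, 24.1 and 13.6 in control and 39.7, 28.5 and 11.1 in IL-17A libraries. Again only the pair with DOX parted without overlap, and the DOX ratio was 23.8 without and 3.42 with IL-17A. The interaction was -2.74 (95% interval -3.91 to -1.56, unadjusted p = 0.00016, adjusted p = 0.25) by limma. *Ifit1*, which binds viral RNA, averaged 132 ± 23.4 (SD, n = 4) with DOX and 30.0 ± 21.5 (SD, n = 3) with both agents, and its interaction was -2.30 (95% interval -3.58 to -1.02). *Ifi44* had -2.19 (95% interval -3.22 to -1.15), and the exonuclease gene *Isg20* had -2.59 (95% interval -3.87 to -1.30). *Isg20* differed from the others in its controls, which were spread from 26.1 to 123. The member nearest to 0 was *Bst2*, which tethers budding virions: its interaction was -0.15 (95% interval -1.60 to 1.30), with IL-17A effects of -1.03 with DOX and -0.88 without. Its sign was positive by DESeq2 (0.12) and edgeR (0.038). Past an unadjusted p of 0.05 were also *Oas1b*, *Oas1g*, *Oas2*, *Oas3*, *Oasl1*, *Oasl2*, *Mx1*, *Mx2*, *Ifit1bl2*, *Ifit3*, *Ifit3b*, *Usp18*, *Cmpk2*, *Ddx60*, *Herc6*, *Xaf1*, *Rtp4*, *Trim30a*, *Parp10*, *Parp12*, *Parp14*, *Dtx3l* and *Samhd1*. Several of these are close paralogs, and reads of near-identical copies may have been divided between them.

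**Figure D2:**
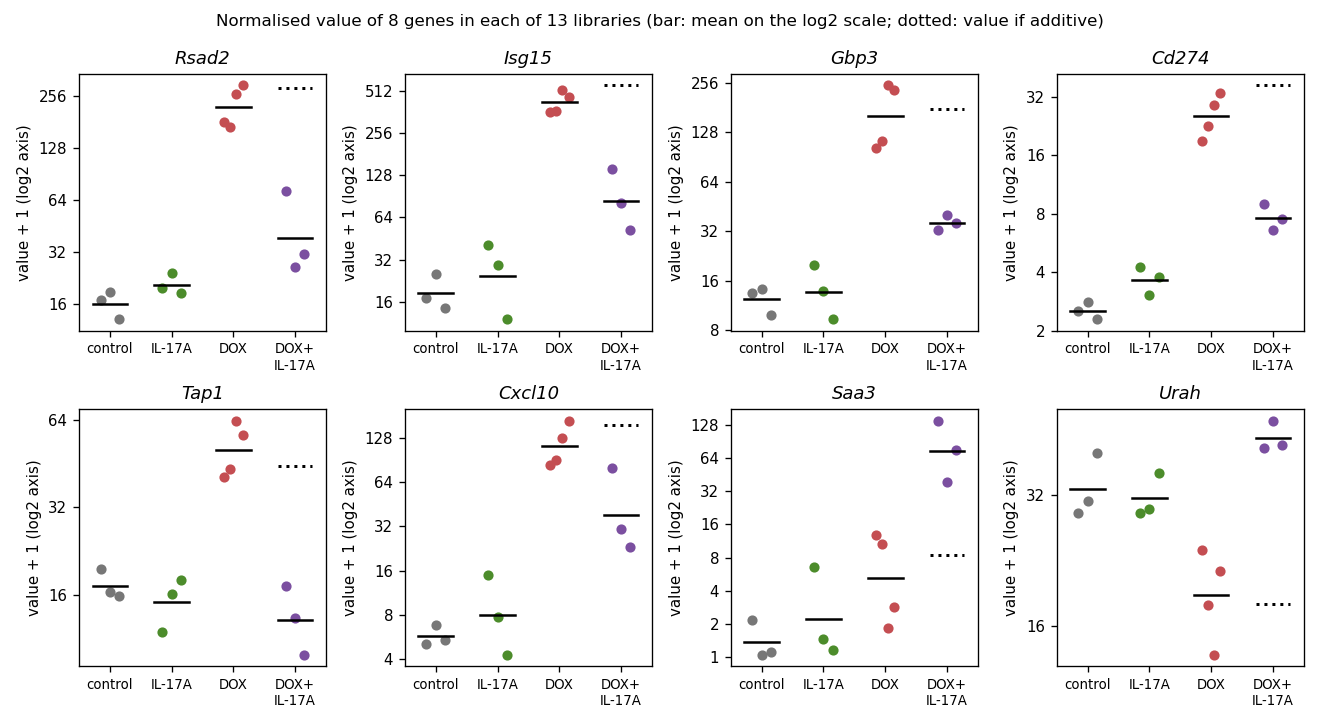
Normalised value plus 1 on a log2 axis for 8 genes in each of the 13 libraries, by condition. Bars are means on the log2 scale and dotted lines the value of DOX+IL-17A if the effects of both agents added up; *Rsad2* lies at 37.9 against 284 and *Urah* at 42.3 against 16.9.

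The mean log2 level of the 43 effectors, described without a test, was 3.77, 3.68 and 3.82 in control libraries, 3.76, 3.77 and 3.67 with IL-17A, 5.66, 5.70, 6.33 and 6.32 with DOX and 4.75, 4.61 and 4.54 with DOX+IL-17A. Control and IL-17A libraries lay in one range, and the DOX+IL-17A libraries lay between them and the DOX libraries. DOX replicates 1 and 2 were lower than replicates 3 and 4. The list median stayed between -1.40 and -1.16 when each library was left out in turn.

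**Figure D3:**
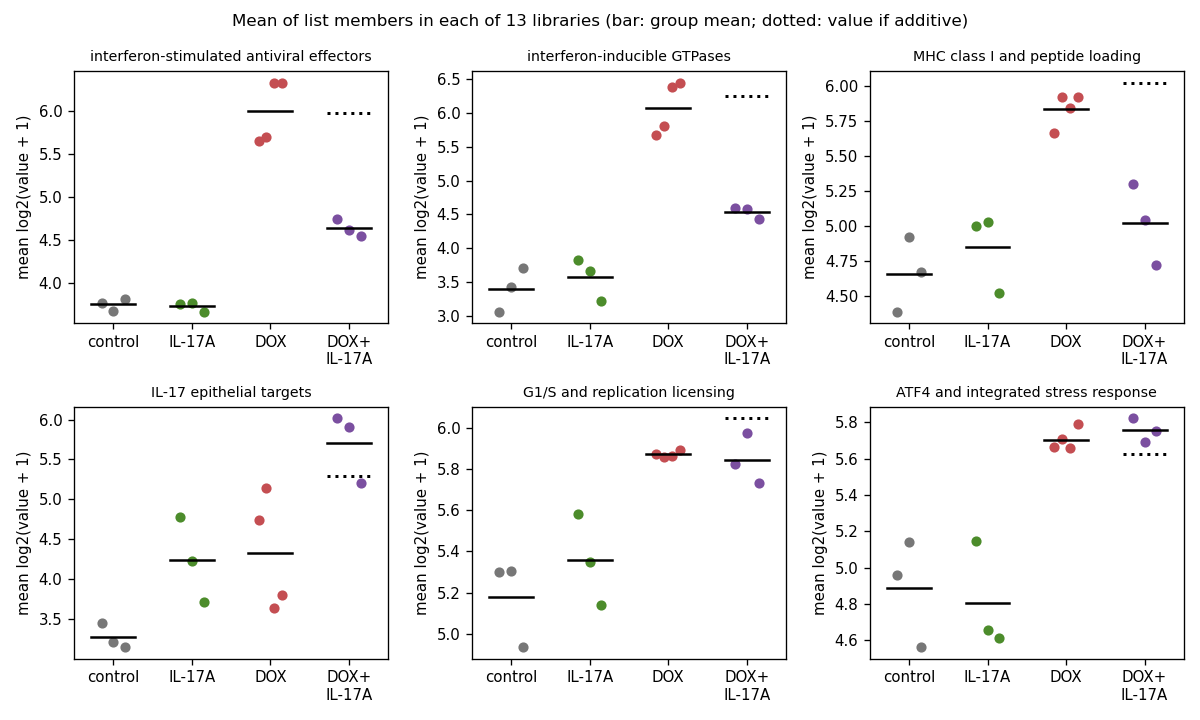
Mean log2(value + 1) over the tested members of 6 lists in each of the 13 libraries, by condition. Bars are group means and dotted lines the DOX+IL-17A mean if effects added up; antiviral effectors were 4.54 to 4.75 with DOX+IL-17A and 5.66 to 6.33 with DOX.

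The GTPases guard against intracellular pathogens and comprise the guanylate-binding (Gbp) and immunity-related families and *Gvin1*, a very large inducible GTPase. All 17 had an interaction below 0, 15 with an unadjusted p under 0.05 (background 2.9%). *Gbp3* was at 102, 112, 246 and 232 with DOX and 31.5, 39.2 and 35 with DOX+IL-17A. It was at 12.5, 13.3 and 8.96 in control and 18.9, 12.9 and 8.37 in IL-17A libraries, which overlapped. Its interaction was -2.30 (95% interval -3.34 to -1.25, unadjusted p = 0.00027, adjusted p = 0.25) by limma. *Gbp4* had -1.75 (95% interval -2.48 to -1.02), *Iigp1* -2.28 (95% interval -3.71 to -0.86), and the near-identical *Tgtp1* and *Tgtp2* had -2.55 and -2.58. The value nearest to 0 was that of *Gvin1*, -0.38 (95% interval -1.17 to 0.40). *Gbp2b*, of the same family but not in the list, had -2.20 (95% interval -3.09 to -1.30, unadjusted p = 9.3e-05, adjusted p = 0.25) by limma.

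MHC class I molecules display peptides that the immunoproteasome cuts and the TAP transporter imports. Of 25 tested genes 23 had an interaction below 0 (54.9% of all tested genes did). Past an unadjusted p of 0.05 were 9, all below 0 (background 2.9%). The immunoproteasome subunit *Psmb8* was at 127, 145, 185 and 152 with DOX and 57.3, 57.6 and 55.5 with both agents, against 34, 66.2 and 63.3 in control and 72.5, 73.7 and 58.5 in IL-17A libraries. The DOX+IL-17A libraries thus lay inside the control range, and the interaction was -1.76 (95% interval -2.48 to -1.05, unadjusted p = 8.9e-05, adjusted p = 0.25) by limma. The transporter subunit *Tap1* was at 39.5, 42.5, 62.5 and 55.8 with DOX and 16.2, 12.3 and 8.99 with DOX+IL-17A. It was at 18.6, 15.3 and 14.9 in control and 10.9, 15.1 and 17.1 in IL-17A libraries, and its interaction was -1.75 (95% interval -2.59 to -0.91, unadjusted p = 0.00046, adjusted p = 0.31) by limma. The heavy chain *H2-K1* had a wide interval, -2.31 (95% interval -4.30 to -0.32), and its controls ran from 10.8 to 101. *H2-D1* had -0.67 (95% interval -1.25 to -0.08) and *H2-T24* -2.35 (95% interval -3.57 to -1.12). Heavy chain genes are close copies, so the assignment of reads among them is uncertain. The others past this threshold were *Psmb9*, *Psmb10*, *Tapbpl* and *Calr*, and the most positive was the chaperone *Pdia3* (0.29). Without DOX+IL-17A replicate 5 the list median was -0.65.

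The list of nucleic acid sensors, most of them cytosolic, also held genes that are not sensors themselves, such as *Mavs*, *Tbk1* and *Adar*. In this list 17 of 19 had an interaction below 0 (54.9% of all tested genes did). Past an unadjusted p of 0.05 were 8, all below 0 (background 2.9%). *Zbp1*, which binds left-handed nucleic acid and can trigger necroptosis, was at 79.2, 91.1, 109 and 116 with DOX and 30.5, 32.6 and 25.7 with both agents. Control libraries held 2.03, 6.45 and 5.89 and IL-17A libraries 6.31, 5.5 and 6.48. The groups with DOX did not overlap, and the interaction was -2.10 (95% interval -3.04 to -1.15, unadjusted p = 0.00024, adjusted p = 0.25) by limma. *Dhx58* had -1.92 and *Tlr3*, which senses RNA in endosomes and not in the cytosol, -0.74, and *Ifi203*, *Mndal*, *Ifih1*, *Ifi204* and *Adar* also passed. *Tmem173*, which encodes STING, was the most positive at 0.46 (95% interval -0.46 to 1.38).

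Interferon receptors, STATs and IRFs were mixed. Here 14 of 19 lay below 0 (54.9% of all tested genes did), with a median of -0.34. Members past an unadjusted p of 0.05 below 0 included *Irf7* (-2.09), *Stat2* (-1.08) and *Irf1* (-0.76). These factors carry the signal and are themselves induced by it. *Irf7* was at 63.8, 67.4, 126 and 139 with DOX and 24.5, 19.9 and 30.5 with DOX+IL-17A, with no overlap, and at 12.7, 6.33 and 9.67 in control and 14.6, 7.39 and 11.7 in IL-17A libraries. The receptor chain *Ifnar1* had 0.90 (95% interval 0.03 to 1.77) and the kinase *Jak2* 0.79 (95% interval 0.17 to 1.41), both above 0 at an unadjusted p under 0.05. *Jak2* had its larger IL-17A effect without DOX, -0.68 (with DOX 0.11).

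All 5 interferon-linked chemokines, which attract T cells and monocytes, lay below 0 (54.9% of all tested genes did). Their level without DOX was low: log2(value + 1) averaged over the list was 1.92 in control and 1.92 in IL-17A libraries, against 4.67 in DOX libraries. Adding 1 shrinks log2 differences at low levels, so an IL-17A effect without DOX could be missed in this list. Past an unadjusted p of 0.05 were 4 (background 2.9%): *Cxcl9* (-2.37), *Cxcl10* (-2.03), *Cxcl11* (-1.57) and *Ccl5* (-1.28). *Cxcl10* was at 83.1, 90.0, 127 and 167 with DOX and 79.5, 29.5 and 22 with both agents. Its highest DOX+IL-17A library came close to the lowest DOX library, and the interaction was -2.03 (95% interval -3.40 to -0.66, unadjusted p = 0.0065, adjusted p = 0.9) by limma. Of 8 checkpoint ligands (median -0.15), 6 lay below 0 (54.9% of all tested genes did). Only *Cd274* (chr19:29367455-29388095), which encodes PD-L1, passed an unadjusted p of 0.05 below 0 (background 2.9%). Only *Icosl*, a costimulatory ligand, passed above 0 (background 1.62%). *Cd274* was at 1.52, 1.83 and 1.3 in control, 3.27, 2.04 and 2.79 in IL-17A, 17.9, 21.6, 28.1 and 32.4 in DOX and 7.98, 5.56 and 6.55 in DOX+IL-17A libraries. Neither pair overlapped, and the IL-17A effects were of opposite sign: 0.53 without DOX and -1.73 with it. The interaction was -2.26 (95% interval -3.20 to -1.32, unadjusted p = 0.00011, adjusted p = 0.25) by limma and ran from -2.40 to -2.13 when each library was left out. *Icosl* had 1.74 (95% interval 0.30 to 3.18) at values up to 5.11.

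Over the 7 interferon-linked lists together, 125 of 136 tested genes lay below 0 (54.9% of all tested genes did), with a median of -1.05. Of the 136, 69 passed an unadjusted p of 0.05 below 0 (background 2.9%) against 3 above (background 1.62%). These 69 were 19.3% of the 357 genes that did so in the whole table. Immune cell markers differed between the groups: 4 of 11 were in the table, and their summed level was 27.1 to 51.4 with DOX, 12.5 to 19.6 with DOX+IL-17A, 18.6 to 21.3 in control and 10.6 to 16.3 with IL-17A. *Cd68*, a macrophage marker, had an interaction of -2.15 and an unadjusted p under 0.05. It was at 9.09 to 18.0 with DOX, 6.16 to 6.87 with DOX+IL-17A, 0 to 6.27 in control and 4.68 to 13.1 with IL-17A. *Csf1r*, a receptor of macrophages, was at 16.6 to 35.0 with DOX and 2.48 to 9.55 with DOX+IL-17A, and also at 14.1 to 16.8 in control and 2.14 to 7.07 with IL-17A, and its interaction was -0.06. *Ptprc*, the pan-leukocyte marker, was at most 1.42 with DOX and 2.45 to 3.57 with DOX+IL-17A. The interaction of *Ptprc* was 1.37, above 0 and also at an unadjusted p under 0.05. Over the 3 tested markers the median interaction was -0.06. *Cd3e* and *Adgre1* were not listed. The part of such cells in these results was not tested. In bulk RNA, fewer cells of a type and less RNA per cell cannot be told apart.

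Genes that IL-17A is known to raise in epithelial cells made up another list. The IL-17A effect over these 24 genes had a median of 1.17 with DOX and 0.77 without, and was above 0 in 20 of them without DOX. The interaction had a median of 0.21, with 14 genes above 0 and 10 below, and 1 passed an unadjusted p of 0.05 (*Saa3*, background 1.62%). This median was not steady: it was -0.23 by voom, -0.29 by DESeq2, -0.34 by edgeR, -0.11 with a pseudocount of 0.1 and -0.20 without DOX replicate 3. The mean log2 level of the list was 3.46, 3.22 and 3.15 in control, 4.77, 4.23 and 3.72 in IL-17A, 4.74, 5.14, 3.64 and 3.80 in DOX and 6.02, 5.90 and 5.21 in DOX+IL-17A libraries. DOX replicates 1 and 2 were higher than replicates 3 and 4, the reverse of their order for antiviral effectors. The 95% interval of a typical member reached 1.57 to either side.

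*Saa3* (chr7:46711998-46715700), an acute phase protein, was at 138, 37.8 and 74.2 with DOX+IL-17A and at 11.8, 9.63, 0.839 and 1.88 with DOX. In control it was at 1.18, 0.0609 and 0.118 and in IL-17A libraries at 5.52, 0.472 and 0.164, in part below the value of 3 reads. Only DOX+IL-17A was high in every library. The interaction was 3.14 (95% interval 0.92 to 5.35, unadjusted p = 0.0085, adjusted p = 0.9) by limma, and 1.59 by DESeq2 and 1.19 by edgeR. *Lcn2*, which binds bacterial siderophores, was at 150.3, 66.2 and 47.1 with both agents, 12.5, 19.7, 0.559 and 0.984 with DOX, 84.7, 25.3 and 24.3 with IL-17A and 12.9, 7.98 and 7.54 in control libraries. Its IL-17A effect was 3.86 with DOX and 1.92 without, and the interval of the interaction spanned 0: 1.95 (95% interval -0.44 to 4.33). *Nfkbiz*, a cofactor of NF-kB, had IL-17A effects of 1.98 and 1.53 and an interaction of 0.45 (95% interval -0.79 to 1.68). *Il1a* had 2.46 and 2.58, with an interaction of -0.12 (95% interval -1.68 to 1.44). The neutrophil chemokine genes *Cxcl1* and *Cxcl5* were on the negative side, at -0.68 (95% interval -2.93 to 1.56) and -0.81 (95% interval -2.40 to 0.78), but above 0 on the linear scale. These intervals allow interactions of either sign for *Il1a* and *Cxcl1*, so additivity was not shown for either.

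**Figure D4:**
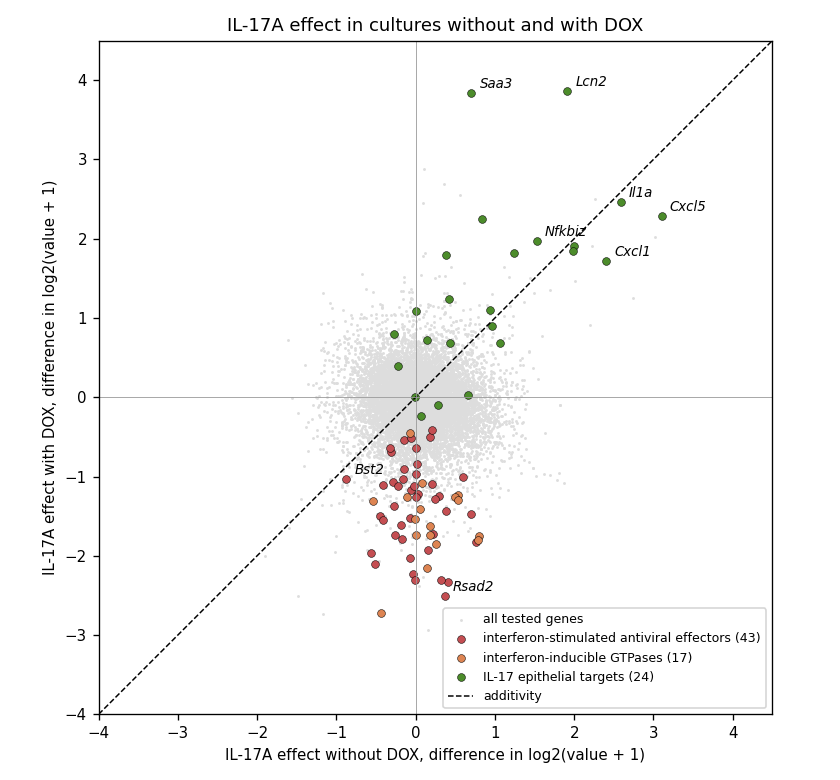
IL-17A effect without DOX (x axis) against with DOX (y axis), both as differences in log2(value + 1), for all tested genes and 3 lists. The dashed diagonal is additivity; the 43 antiviral effectors and 17 GTPases all lie below it and below 0 on the y axis, while 14 of the 24 IL-17 target genes lie above the diagonal.

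The receptor chains and adaptors of IL-17A showed no gene past an unadjusted p of 0.05 among 15, with a median of -0.15 that ran from -0.27 (without IL-17A replicate 5) to 0.002 (without IL-17A replicate 2) when each library was left out. *Il17ra* had 0.28 (95% interval -0.58 to 1.15) and *Il17rc* 0.11 (95% interval -1.05 to 1.26), and both signs changed under other settings. Of 16 chemokine and colony-stimulating factor genes none passed either (median -0.09, from -0.43 without IL-17A replicate 5 to 0.28 without IL-17A replicate 2), and *Csf3*, the granulocyte growth factor, was the most positive at 1.41 (95% interval -0.80 to 3.61). A further list held 23 NF-kB subunits, inhibitors and other NF-kB-linked genes such as *Icam1* and *Birc3* (median -0.05). The 3 past the threshold lay below 0 (background 2.9%): *Birc3* (-1.78), *Icam1* (-1.32) and *Nfkbia* (-0.85). *Nfkbia*, the feedback inhibitor of NF-kB, was at 193, 494 and 433 in control and 899, 759.9 and 565 in IL-17A libraries, and at 799, 887, 821 and 786 in DOX and 968, 1095 and 832 in DOX+IL-17A libraries. The first pair parted without overlap and the second did not. Among 27 AP-1 and immediate early genes *Atf3* (-1.39), *Fosb* (-1.17) and *Klf4* (-0.93) passed below 0 and *Maff* (1.29) above 0 (background 1.62%).

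Functions of the DNA damage response and cell growth had medians from -0.28 to 0.09. Among 43 DNA damage checkpoint and repair genes none passed an unadjusted p of 0.05 (median -0.13), nor did any of 44 G1/S and replication genes (-0.19), 32 ATF4 stress response genes (0.09) or 21 glycolysis genes (-0.01). Mitosis genes had a median of -0.28, but -0.07 without control replicate 1. Of the 41 mitosis genes 33 lay below 0 (54.9% of all tested genes did). In this list 1 gene passed above 0 (*Kif4*, background 1.62%) and 1 below (*Birc5*, background 2.9%). When each library was left out the median ran from -0.20 to -0.01 for checkpoint and repair genes (highest without DOX+IL-17A replicate 2), -0.29 to -0.05 for G1/S genes (highest without IL-17A replicate 2), 0.02 to 0.26 for ATF4 genes and -0.25 to 0.17 for glycolysis genes. The 81 cytosolic ribosomal protein genes had -0.23, but -0.02 without control replicate 1. The 26 tested target genes of p53, the factor that DNA damage activates, had a median of -0.28, with 14 below 0 and 12 above. That median was 0.06 without DOX+IL-17A replicate 5, -0.01 without DOX replicate 2 and 0.01 by DESeq2, and it lay between -0.15 and -0.06 without control replicate 1, control replicate 5, IL-17A replicate 2 or IL-17A replicate 3. The 3 past an unadjusted p of 0.05, all below 0 (background 2.9%), were *Ephx1* (-1.34), *Ei24* (-0.71) and *Cdkn1a*. *Cdkn1a*, which encodes the cell cycle inhibitor p21, was at 31.3, 29 and 28.8 in control and 54.1, 85 and 119 in IL-17A libraries. It was at 50.7, 42.5, 66.5 and 38.9 in DOX and 64.6, 64.8 and 94.3 in DOX+IL-17A libraries. Only the groups without DOX parted, and the interaction was -0.85 (95% interval -1.68 to -0.02, unadjusted p = 0.045, adjusted p = 0.9) by limma. The TNF receptor family gene *Tnfrsf12a* had -2.59 (95% interval -4.60 to -0.57), with controls from 1.52 to 17.9.

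On the positive side the highest median among the 39 function lists was 0.37, that of 13 genes of the EGF receptor family, its ligands and MET, of which none passed an unadjusted p of 0.05. It was 0.13 without IL-17A replicate 5 and 0.20 without IL-17A replicate 3 or DOX+IL-17A replicate 3. Matrix, integrin and matrix protease genes had a median of 0.26, and this median stayed between 0.19 and 0.36 when each library was left out. Of the 45 genes 34 lay above 0 (5552 of all 12319 tested genes did). Past an unadjusted p of 0.05 were 2 above 0 (background 1.62%) and 1 below (background 2.9%). *Timp1*, an inhibitor of matrix proteases, was at 98.8, 105 and 121 with DOX+IL-17A and 54.4, 54.6, 72.4 and 66.9 with DOX. Control and IL-17A libraries held 55.7, 42.1 and 41.8 and 41.7, 41.2 and 53.3. Only the combination lay apart from the other 3 conditions, and the interaction was 0.83 (95% interval 0.21 to 1.45, unadjusted p = 0.012, adjusted p = 0.9) by limma. The collagen receptor subunit *Itga2* had 1.35 (95% interval 0.34 to 2.37), and the membrane protease *Mmp14* lay on the other side at -0.71 (95% interval -1.39 to -0.03). The most positive member was *Col3a1*, a fibrillar collagen of fibroblasts, at 1.57 (95% interval -0.27 to 3.40). Fibroblast and endothelial markers, of which 5 of 10 were in the table and 3 (*Col1a1*, *Col1a2* and *Col3a1*) also stand in the matrix list, had a median interaction of 0.71 with 4 of 5 above 0 and none past an unadjusted p of 0.05. That median was 0.28 without control replicate 1 and 1.22 without control replicate 5. Their summed level was 143 in control replicate 1 and 48.2 and 50.2 in the other controls, 41.2 to 57.8 with IL-17A, 27.9 to 78.1 with DOX and 56.3 to 66.7 with DOX+IL-17A. The endothelial markers *Pecam1*, *Cdh5*, *Kdr* and *Cldn5* were not listed. The part of such cells in these values was not tested.

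Single members of other lists also had an unadjusted p under 0.05, as did 1.62% of all tested genes above 0 and 2.9% below. These lists held from 12 (BCL2 family) to 81 (cytosolic ribosomal proteins) tested genes. Each list had at most 1 such member above 0 and 2 below. Apart from the list of *Id1* and *Id2*, the smallest adjusted p of each list was 0.9 by limma. *Id1* and *Id2*, inhibitors of differentiation, lay on opposite sides of 0. *Id1* had IL-17A effects of 0.92 with DOX and -0.18 without, and the 95% interval of their difference was 0.29 to 1.91 (unadjusted p = 0.011, adjusted p = 0.9 by limma). *Id2* had -1.66 (95% interval -2.46 to -0.86, unadjusted p = 0.00046, adjusted p = 0.31) by limma. *Id2* was at 58.7, 82.9 and 127 in control and 163, 239.9 and 269 in IL-17A libraries, and at 116, 117, 111 and 103 in DOX and 111, 67.8 and 97.1 in DOX+IL-17A libraries. The IL-17A effect on *Id2* was 1.35 without DOX and -0.31 with it. *Jag1* (1.07), a ligand of Notch, *Hif1a* (1.09), the hypoxia-inducible factor, *Gstm1* (1.41), a glutathione transferase, *Pes1* (0.79), of ribosome biogenesis, *Psmc2* (1.47), of the proteasome, and the histone gene *Hist1h1b* (1.35) were above 0. Below 0 were *Notch4* (-1.27), a Notch receptor, *Bid* (-2.08), a pro-apoptotic BCL2 family gene, *Cgn* (-1.28), of tight junctions, the small heat shock gene *Hspb8* (-1.15), the lysosomal genes *Cd63* (-1.29) and *Glb1* (-1.09), the ribosomal protein gene *Rps27a* (-1.16) and the histone genes *Hist1h2ak* (-1.56) and *Hist3h2a* (-1.48).

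Among better-expressed genes (mean log2 value at or above the median of tested genes), 235 had an unadjusted p under 0.05, 173 below 0 and 62 above. Over all tested genes 4.51% did, 2.9% below 0 and 1.62% above. The 7 interferon-linked lists hold 136 of the 12319 tested genes. The plot of the 12 most negative and 12 most positive of the 235 shows 10 interferon-linked list members at the negative end. The other 2 were *Gbp2b* and *Llgl1*, a cell polarity gene at -2.76 (95% interval -5.26 to -0.25) whose controls ran from 2.03 to 91.3. The positive end was mixed. It held the gap junction gene *Gja1* (1.99), *1110008P14Rik* (1.69), the ETS factor *Etv4* (1.47), the pseudogene *Gm1818* (1.41), *Zfp575* (1.37), the lysosomal trafficking gene *Lyst* (1.34), the purine salvage gene *Aprt* (1.31), *Urah* (1.27), the ephrin receptor *Epha4* (1.24), the fatty acid oxidation gene *Echs1* (1.21), *Ifitm2* (1.13) and the matrix glycoprotein *Thbs1* (1.12). *Urah* (chr7:140835018-140837966), which acts in urate breakdown, had the smallest p of these. It was at 40.1, 46.4 and 40.7 with DOX+IL-17A and 22.9, 16.9, 12.7 and 20.4 with DOX, and at 28.1, 30.0 and 38.9 in control and 28, 28.6 and 34.9 in IL-17A libraries. Its DOX libraries lay below all others, and the interaction was 1.27 (95% interval 0.53 to 2.02, unadjusted p = 0.0023, adjusted p = 0.75) by limma.

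**Figure D5:**
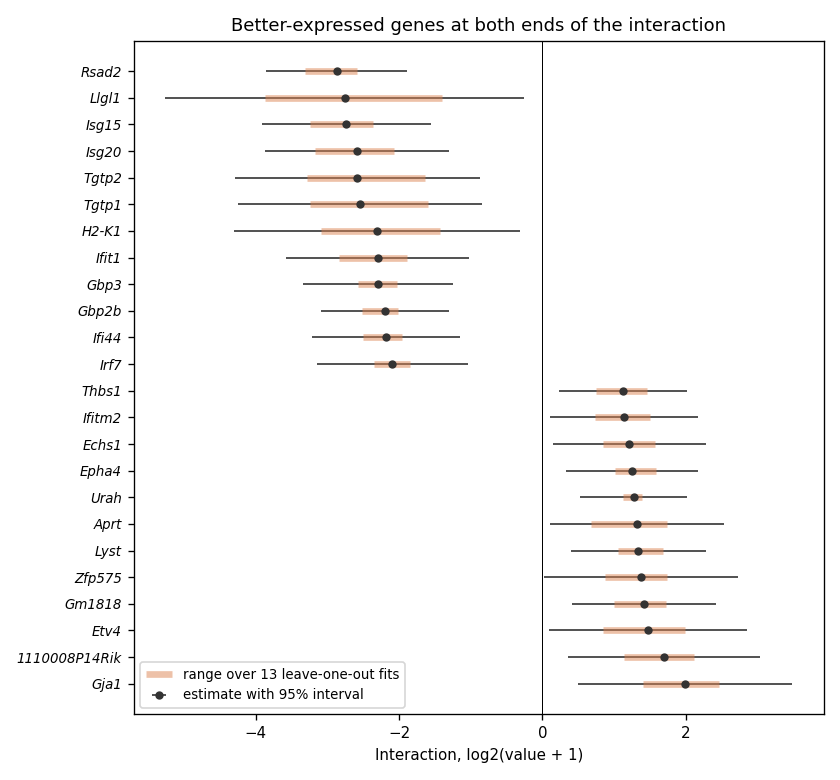
Interaction on the log2(value + 1) scale (x axis) of the 12 most negative and 12 most positive genes among better-expressed genes with an unadjusted p under 0.05. Points with black lines are estimates with 95% intervals and orange bars the range over 13 fits that left out 1 library each; *Rsad2* is at -2.87 and *Gja1* at 1.99.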

How the data were processed

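The authors made 3′ mRNA libraries, and aligned, counted and normalized the reads; their processing notes name FastQC, Trimmomatic, STAR, featureCounts and the mm10 genome. The deposited table holds a TMM-normalized signal per gene and library, that is, reads divided by a scaled library size. Within each library 100% of values were whole multiples of 1 read (tolerance 0.01), so reads were recovered. Of 13223 entries 1 repeated entry was dropped, and 17 names that had become dates were kept as listed.

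The interaction contrast was fitted with limma 3.58.1 (trend, R 4.3.3) on log2(value + 1) in all 13 libraries (9 residual degrees of freedom), for genes kept by filterByExpr of edgeR 4.0.16, 2-sided, with Benjamini-Hochberg adjustment over 12319 genes. The scripts were tested on simulated data. The conditions share their libraries, so effects with and without DOX are given side by side. Members and lists were chosen with earlier results of these data known. Genes named were, among better-expressed genes with an unadjusted p under 0.05, the 12 most positive and 12 most negative. Named too were 12 genes of the interferon, IL-17A, checkpoint and p53 pathways. In lists described, members with an unadjusted p under 0.05 and those at both ends were also named. *Apol7a*, *Eml6* and the immune and fibroblast markers were named after their values were seen. Some results that the rule covers are not reported here. Alternatives were voom, DESeq2 1.42.0 and edgeR's quasi-likelihood test on reads, scaling by library size, no filter or a filter of 10 reads on the mean, limma with 0.1 added in place of 1 or without the trend, the replicate number as a block, linear values, and leaving out each library. Leaving out control replicate 1 and DOX replicate 1 together was added after seeing the data. Promoters came from RefSeq (GRCm38.p6) and gene positions from the GRCm38 annotation. A value of 3 reads corresponds to 0.183 to 0.613 units and covers counting error only.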

Additional observations from a re-analysis of the deposited data

Results flagged for a closer look

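In the DOX group of 4 libraries, 139 values were examined for a library far from the other 3, and 3 were found, where chance gives about 1 in 20. *Jak2* was at 112 in DOX replicate 1 and at 91.7 to 94.9 in the others. *Tnfrsf12a* was at 46.9 in DOX replicate 2 and at 21.6 to 25.6 in the others. The mean log2 level of the IL-17 receptor chains and adaptors was 4.36 in DOX replicate 1 and 4.49 to 4.51 in the others.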

How the results depend on the processing

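The number of genes past an adjusted p of 0.05 was 0 in limma and under every alternative except DESeq2 (18) and the fit without DOX+IL-17A replicate 2 (1, *Rsad2*, interaction -3.32, adjusted p = 0.0054), so it was 0 to 1 when 1 library was left out. Over those fits the number past an unadjusted p of 0.05 was 375 to 1276, of them 127 to 437 above 0 and 240 to 839 below 0. It was 1276 without control replicate 3, 1078 without IL-17A replicate 5, and 425 without control replicate 1 and DOX replicate 1 together. The number above 0 was 127 without IL-17A replicate 2 and 358 by DESeq2. Scaling by library size moved the median of all genes from -0.064 to -0.025 and the split from 199 above and 357 below 0 to 262 and 300 (46.6% above, against 35.8%). The cause was not tested. Same-numbered libraries deviated together in part only (mean r of 0.15 over 13 pairs, -0.18 to 0.49, and -0.04 over the 50 other pairs), so the numbers were not taken to pair them. The replicate block gave 627 genes past an unadjusted p of 0.05 (216 above, 411 below) and 0 past the adjusted one.

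Medians of the 7 interferon-linked lists were below 0 in all 23 alternative fits, at -1.93 to -1.57 for GTPases, -2.14 to -1.23 for chemokines, -1.45 to -1.16 for effectors and -1.08 to -0.65 for MHC class I genes. The median of the IL-17 targets was below 0 in 5 of 23 (-0.34 to 0.66). Signs changed for 6 of the genes named. *Bst2* was at 0.12 by DESeq2, 0.038 by edgeR and -0.65 to 0.37 when 1 library was left out. *Cxcl1* was at -1.62 to 0.23 when 1 library was left out, and on the linear scale *Cxcl1* was at 206.9, *Cxcl5* at 805 and *Il1a* at 60.4 normalised units. *Il1a* was at 0.17 with the replicate block and -0.57 to 0.33 when 1 library was left out. *Il17rc* was at -0.093 by voom, -0.0055 with the replicate block and -0.25 to 0.55 when 1 library was left out. *Il17ra* was at 0.013 to 0.48 when 1 library was left out. Without both control replicate 1 and DOX replicate 1, *Il17ra* was at -0.0089, *Il17rc* at -0.065 and *Il1a* at 0.11.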
